A study of Mus musculus with 6 samples.

Results

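The genes described here are 52 genes of mitosis and the G2/M transition, taken by symbol from the gene names in the array files. They are measured by 72 of the 55681 probes on the array, and 51 of the 52 could be tested among 28978 features. The exception was Aurkb, the catalytic kinase of the chromosomal passenger complex, whose only probe was not well above background on any array in either colour. The members were listed by function and not by their values, though with earlier results of these data known.

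RNA came from hematopoietic stem cells (HSCs), which maintain blood formation, and from multipotent progenitors (MPPs), their descendants without long-term self-renewal. Both populations were purified by FACS from wild-type (WT) and from Bmi1 KO mice on the C57BL6 background, aged 2 to 3 months. Bmi1 encodes a Polycomb protein that represses the Cdkn2a locus. Each of the 6 dual-colour arrays carried 1 WT sample in Cy3 (green) and 1 Bmi1 KO sample in Cy5 (red), with 3 arrays for HSCs and 3 for MPPs. The labels call the replicates biological, do not say whether animals were pooled, and do not say which part of Bmi1 was deleted. No array had the dyes exchanged, so a dye effect on a probe and a genotype effect cannot be told apart in the KO over WT ratios. Comparisons of MPPs with HSCs were made within 1 dye and do not carry that effect.

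Cells enter mitosis when the kinase Cdk1, bound to cyclin A or B, is switched on by Cdc25 phosphatases and reinforced by Polo and Aurora kinases. Chromosomes are then compacted by condensin and captured by kinetochores. The spindle checkpoint holds back the anaphase-promoting complex until every chromosome is attached, after which securin and cyclin B are destroyed, sisters separate and the cell divides. Most of these genes are transcribed late in the cell cycle, so their summed RNA in a population also reflects how many cells are cycling. Adult HSCs are mostly quiescent, whereas MPPs divide more often. In bulk RNA, fewer cells of a type and less RNA per cell cannot be told apart.

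Late cell-cycle transcription is classically tied to 2 promoter elements, the cell cycle genes homology region (CHR) and CCAAT boxes. The upstream sequences of 4 members are shown because results below turn on them. Smc2 and Ect2 each passed the test in 1 genotype, and Kif11 had the next smallest p-value in both genotypes. Hmmr had a lower mean in MPPs than in HSCs, with overlapping arrays and no call. Each line holds the 250 bases before the gene's annotated start, 5′ to 3′ on the gene's strand, from RefSeq on GRCm38.p6, with matches to CHR (TTTGAA or TTCGAA) or CCAAT on either strand in capitals.
Smc2, chr4:52438971-52439220, plus strand: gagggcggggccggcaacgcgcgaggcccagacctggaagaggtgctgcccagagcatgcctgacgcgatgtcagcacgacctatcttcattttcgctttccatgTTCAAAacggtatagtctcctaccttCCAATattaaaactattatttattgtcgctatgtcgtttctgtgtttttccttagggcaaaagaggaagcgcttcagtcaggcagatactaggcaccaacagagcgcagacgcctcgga
Ect2, chr3:27153855-27154104, minus strand: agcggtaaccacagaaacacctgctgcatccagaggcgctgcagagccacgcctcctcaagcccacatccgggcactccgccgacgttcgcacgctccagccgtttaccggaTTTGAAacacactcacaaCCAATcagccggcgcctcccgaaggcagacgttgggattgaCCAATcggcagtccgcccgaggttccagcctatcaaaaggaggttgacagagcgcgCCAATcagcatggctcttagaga
Kif11, chr19:37376132-37376381, plus strand: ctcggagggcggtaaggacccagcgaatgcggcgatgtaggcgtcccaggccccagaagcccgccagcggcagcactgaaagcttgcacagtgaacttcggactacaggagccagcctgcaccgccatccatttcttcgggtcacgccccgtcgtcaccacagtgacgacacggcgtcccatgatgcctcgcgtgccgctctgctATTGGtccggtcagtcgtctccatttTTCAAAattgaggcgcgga
Hmmr, chr11:40733438-40733687, minus strand: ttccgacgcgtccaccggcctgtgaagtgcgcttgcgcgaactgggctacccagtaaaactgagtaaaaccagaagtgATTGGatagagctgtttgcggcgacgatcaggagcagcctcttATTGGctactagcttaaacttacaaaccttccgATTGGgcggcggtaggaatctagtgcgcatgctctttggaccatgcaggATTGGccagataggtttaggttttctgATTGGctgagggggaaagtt
Counted to the first base of a match, the Kif11 promoter has its CHR 19 bases before the start and its CCAAT 45 bases before it, both on the strand opposite to the gene. In Smc2 these letters lie 145 and 119 bases before the start, and another CHR match begins 26 bases after it. Ect2, which has more than 1 annotated start, holds CCAAT at 120, 79 and 23 bases before the start shown here and CHR at 138 bases before and 15 bases after it. Hmmr holds 5 CCAAT matches, all upstream, and 1 CHR match that begins 8 bases after the start and so is not in the line above. Hmmr, whose lower mean in MPPs was not called, thus carries the same letters as Smc2, Ect2 and Kif11.

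A RefSeq promoter, from 250 bases before to 50 bases after the start, was found for 44 of the 52 members. CHR letters were present in 35 of the 44 (79.5%), against 21.7% of the 27025 genes with a promoter in the table. CCAAT was also present in 35 (79.5%), against 41.1% of all genes. Both were present in 32 members (72.7%), against 8.61% of all genes, and at least 2 CCAAT matches in 23 members (52.3%), against 13.3%. The 47 promoters include 2 overlapping ones for each of 3 members, so a site in the overlap is counted from both starts, and the 50 CHR matches are 46 distinct sites and the 83 CCAAT matches 77. Of the 50 CHR matches, 34 began within the last 100 bases of the window, from 50 bases before the start to 49 after it. Of the 83 CCAAT matches, 37 began between 150 and 51 bases before the start and 30 in the window around it. CHR and CCAAT letters overlapped each other in 1 place among the members' promoters. A match describes letters in this window and does not show that a factor binds there.

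**Figure D1:**
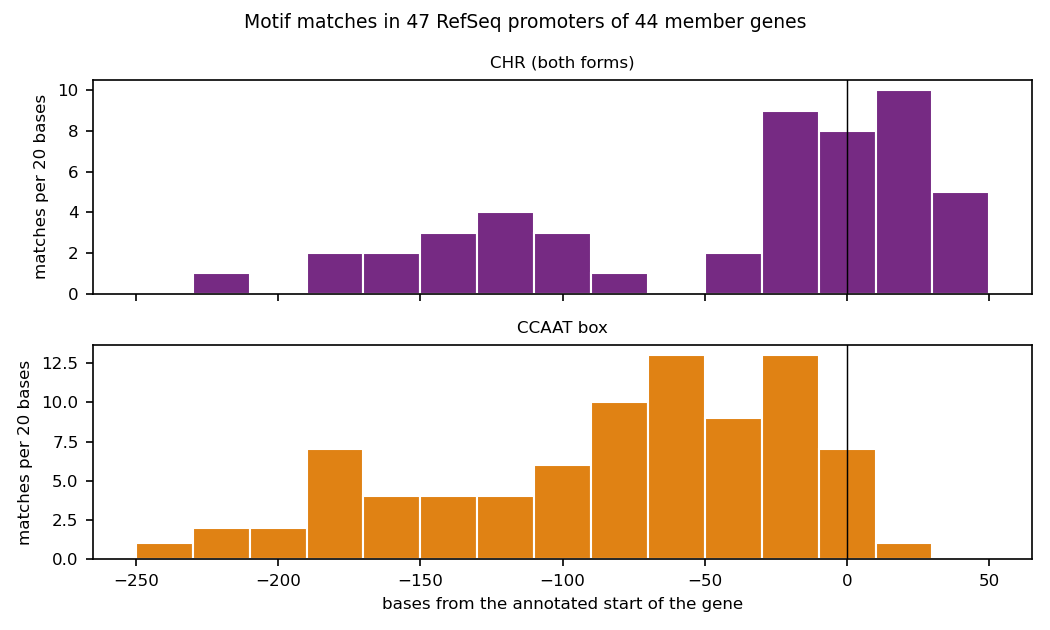
Number of motif matches per 20 bases (vertical axes) against their distance from the annotated start (horizontal axis, bases, negative before the start) in 47 promoters of 44 members. A site in overlapping promoters of a gene is counted from each start. CHR matches (top, 50 in all) lie mostly around the start, and CCAAT matches (bottom, 83 in all) mostly between 150 bases upstream and the start.

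The arrays were similar in signal, with a median spot intensity of 124 to 206 in green and 379 to 581 in red. Between 42 and 51 of the 52 members were well above background per array in WT and between 45 and 51 in KO, and no member's spot was saturated. Of the 51 tested members 39 were well above background on all arrays in both colours, and 12 were not on 1 or more: Aurka, Melk, Bub1b, Ttk, Ube2c, Cdca3, Cenpf, Kif4, Anln, Smc2, Ncapd2 and Ncapg. For these 12, a value on a dim array is only an upper bound on the level, and differences and ratios that use it are not exact sizes. Melk, Ttk, Cenpf, Kif4, Anln and Ncapg passed the filter only through MPPs. Precision is limited by having 3 arrays per population. The labelled populations carried their markers. All 12 HSC surface and nuclear markers were lower in WT MPPs than in WT HSCs (median log2 change -0.85) and 10 of 12 in KO, while all 9 MPP and lymphoid-primed markers were higher in both genotypes (medians 2.76 and 2.92). Of the Bmi1 probes, the brighter gave log2 KO over WT ratios of -0.39, -2.42 and -0.50 in HSCs and 0.23, -0.69 and 0.48 in MPPs. The dimmer gave 0.11, -1.66 and 1.36 in HSCs and 0.93, 0.70 and -0.05 in MPPs. This dimmer probe was well above background on only 2 of 3 WT HSC arrays. Its lowest WT level, 6.04 on HSC replicate 3, underlies the ratio of 1.36. Bmi1 RNA was therefore not lower in every KO library, and because the deleted part is not given these probes do not check the labels.

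The first comparison asked how these genes differ between MPPs and HSCs of WT mice. In WT cells 46 of the 51 tested genes were higher in MPPs, with a median log2 change of 0.95, whereas the median over all features was -0.09 and 43.6% of features were higher in MPPs. The arrays of the 2 populations did not overlap for 20 members, all higher in MPPs, against 8.23% of all features, and no member was lower in MPPs without overlap, against 13.9% of all features. After Benjamini-Hochberg adjustment over all features, limma called 1 member, Smc2, where it called 0.424% of all features (0.366% as higher). At an unadjusted p under 0.05, 18 members were higher, against 6.76% of features, and 0 were lower, against 8.42%. Of the 51 members, 24 were at least 2-fold higher, against 10.4% of features. Ttk, Kif4 and Anln, which passed the filter only through MPPs, are among these 24, and Ttk is among the 20 without overlap. Cdca3 is also among the 20, though dim on every WT HSC array and on WT MPP replicate 2, so that order is not measured. Of the 39 members well above background throughout, 36 were higher in WT MPPs and 37 in KO MPPs.

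Smc2 encodes the SMC subunit that pairs with Smc4 at the core of condensin, the ring that compacts mitotic chromosomes. Its log2 intensity in WT HSCs was 6.58, 6.04 and 6.67, and in WT MPPs 8.56, 8.90 and 8.77. The 3 MPP arrays lay close together and far above the 3 HSC arrays. Smc2 rose 4.98-fold (log2 change 2.32, SE 0.27, limma adjusted p = 0.0362), and 1 of the 3 HSC arrays was not well above background. Its call was lost when any 1 array was left out (adjusted p from 0.0813 to 0.182, log2 change from 2.12 to 2.43).

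Of the members that did not pass in WT, the 4 with the smallest p and no overlap were Kif11, Ect2, Aurka and Cdc25c. Kif11, the kinesin that pushes spindle poles apart, stood at 7.45, 8.32 and 8.09 in WT HSCs and at 10.32, 9.68 and 10.38 in WT MPPs. Its log2 difference was 2.17 (SE 0.34, limma adjusted p = 0.0864). Every MPP array was thus more than 2-fold above every HSC array. Ect2, the exchange factor that activates RhoA at the division site, measured 7.0, 6.34 and 7.08 in WT HSCs and 8.68, 10.17 and 9.44 in WT MPPs. That is a log2 difference of 2.62 (SE 0.44, limma adjusted p = 0.107), with more spread among the MPP arrays. Aurka, the kinase of centrosomes and spindle poles, gave 6.99, 6.01 and 6.19 in HSCs against 8.02, 8.95 and 8.79 in MPPs (log2 difference 2.19, SE 0.39, limma adjusted p = 0.124), with HSC replicates 2 and 3 not well above background. Cdc25c, a phosphatase that activates Cdk1, gave 7.82, 8.91 and 7.74 against 10.75, 9.61 and 10.27 (log2 difference 2.05, SE 0.45, limma adjusted p = 0.189). None of these 4 passed the threshold.

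In Bmi1 KO cells 48 of 51 members were higher in MPPs than in HSCs, with a median log2 change of 1.37, against -0.09 over all features and 43% of features above 0. The arrays did not overlap for 33 members, all higher in MPPs, against 8.64% of all features, and none was lower without overlap, against 11.1%. Limma called 1 member, Ect2, where it called 0.528% of all features (0.421% as higher). At an unadjusted p under 0.05, 34 members were higher, against 6.54% of features, and 0 were lower, against 5.54%. The number at that p was 18 without MPP replicate 3, and it also fell with slide row as a covariate. The share of all features at that p was not counted in these fits. At least 2-fold higher were 36 of the 51 members, against 8.63% of features. Of the members that passed the filter only through MPPs, Melk, Ttk, Kif4 and Ncapg are among the 33 without overlap. Melk, Ttk, Cenpf, Kif4 and Anln are among the 36. These counts thus include members kept because of their MPP level.

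Ect2 stood at 7.62, 8.26 and 8.17 in KO HSCs and at 10.22, 9.88 and 10.49 in KO MPPs. All 3 KO MPP arrays were well separated from the HSC arrays. It rose 4.54-fold (log2 change 2.18, SE 0.30, limma adjusted p = 0.0419). Leaving out any 1 array lost the call (adjusted p from 0.0700 to 0.193), as did averaging its 2 probes (log2 change 1.77, adjusted p = 0.121).

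Of the members that did not pass in KO, those with the smallest p and no overlap were Kif11, Cdc20, Kif20a and Espl1. Kif11 gave 9.78, 9.78 and 9.40 in KO HSCs and 11.45, 10.75 and 11.79 in KO MPPs (log2 difference 1.68, SE 0.33, limma adjusted p = 0.125). Cdc20, the activator of the anaphase-promoting complex that the checkpoint inhibits, gave 9.21, 9.56 and 9.99 against 11.13, 10.74 and 11.01 (1.37, SE 0.29). Kif20a, a kinesin of the central spindle, gave 10.61, 9.76 and 11.15 against 12.36, 12.13 and 12.76 (1.91, SE 0.40). Espl1, separase, which cleaves cohesin at anaphase, gave 9.75, 9.53 and 9.70 against 10.70, 10.62 and 10.96 (1.10, SE 0.23). The limma adjusted p was 0.141 for each of the last 3 genes. Espl1 was the tightest of them in KO, whereas in WT its arrays overlapped widely (9.0, 8.44 and 7.79 against 9.62, 7.19 and 8.78).

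**Figure D2:**
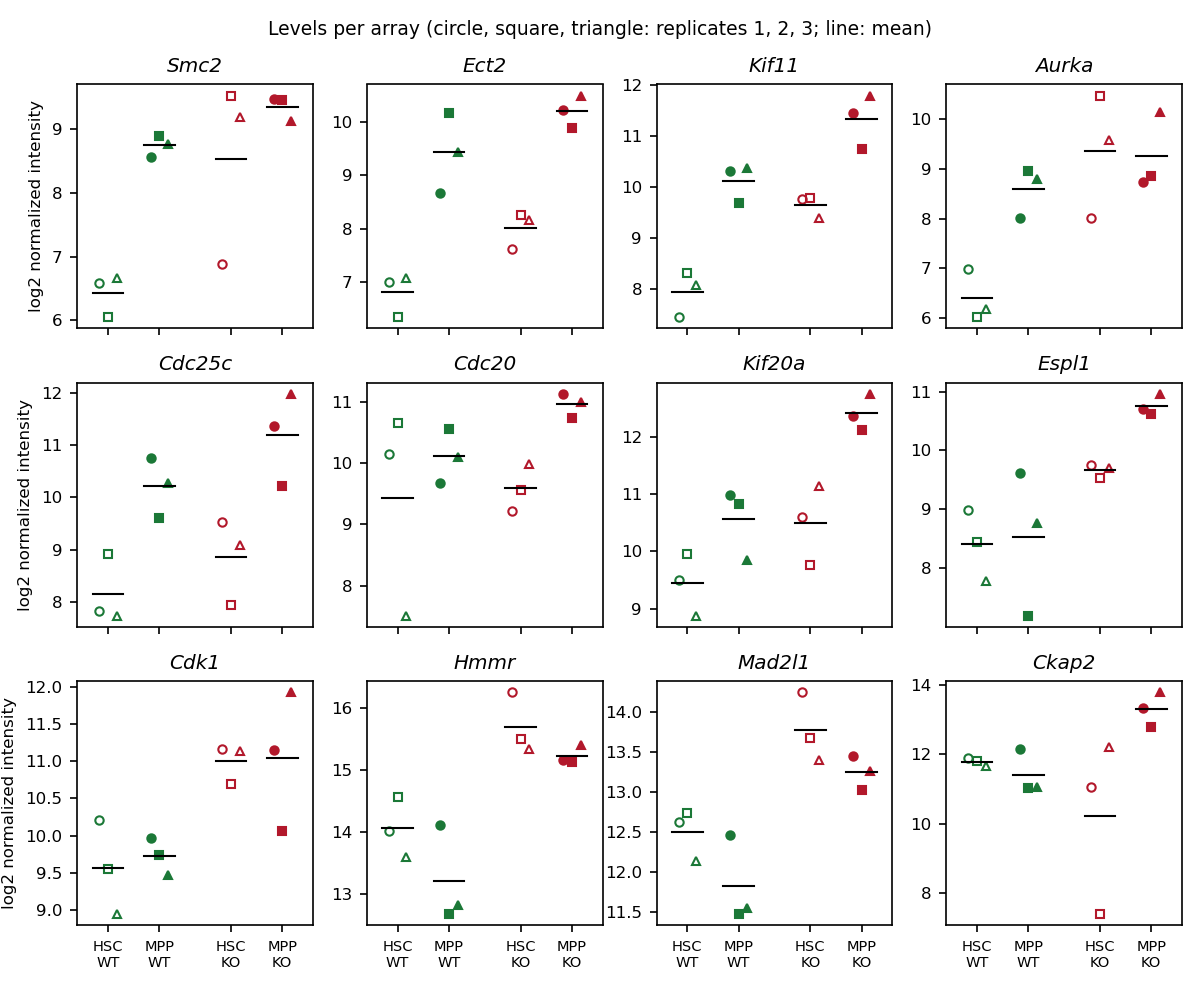
Log2 normalized intensity (vertical axes, a scale of its own for each gene) of 12 members in HSCs (open symbols) and MPPs (filled) of WT (green, Cy3) and Bmi1 KO mice (red, Cy5), with replicates as circle, square and triangle and the mean as a line. Smc2 in WT (6.04 to 6.67 against 8.56 to 8.90) and Ect2 in KO (7.62 to 8.26 against 9.88 to 10.49) show separated groups, while Cdk1, Hmmr and Mad2l1 overlap in both genotypes.

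Set side by side, 45 members were higher in MPPs in both genotypes and 2, Mad2l1 and Hmmr, were lower in both. Aurka was higher in WT only, and Melk, Cenpf and Ckap2 in KO only. The WT signs of Melk and Cenpf rest on arrays not well above background in both populations. For 12 members the arrays did not overlap in either genotype: Ccnb1, Cdc25c, Ttk, Birc5, Cdca8, Ube2c, Cenpe, Kif11, Kif23, Ect2, Top2a and Cdca2. Some of these margins were small. In WT the highest HSC and lowest MPP arrays were 10.74 and 10.76 for Ccnb1, 11.09 and 11.11 for Top2a, and 12.71 and 12.78 for Birc5. At least 2-fold differences in both genotypes were seen for 21 members. The shares of all features meeting these joint rules were not counted. Neither can exceed the lower single-genotype share, which was 8.23% for no overlap (WT) and 8.63% for 2-fold (KO). Ttk, which passed the filter only through MPPs, is among the 12, and Ttk, Kif4 and Anln, which did likewise, are among the 21. The WT and KO samples of a number shared an array, so the genotypes are not wholly separate measurements.

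Among the parts of the Cdk1 engine, all 6 members were higher in MPPs in both genotypes, with a small difference for the kinase itself. Cdk1 stood at 10.21, 9.55 and 8.95 in WT HSCs and 9.97, 9.74 and 9.48 in WT MPPs, a log2 difference of 0.16 with a 95% interval from -0.75 to 1.07. In KO the difference was 0.05, with an interval from -1.11 to 1.21, so a level 2-fold higher in MPPs lies inside both intervals. Its 2 dimmer probes gave 0.59 and 0.62 in WT and 0.87 and 0.41 in KO. The cyclins differed more. Ccna2, which carries cells from S phase into prophase, was 1.47 higher in WT and 1.67 higher in KO. Ccnb1, the main mitotic cyclin, went from 10.74, 10.35 and 10.40 to 11.60, 10.76 and 11.58 in WT and from 11.85, 9.71 and 11.94 to 13.11, 12.56 and 13.41 in KO. Its groups did not overlap in either genotype, and its log2 differences were 0.81 (SE 0.32) and 1.86 (SE 0.63). The 2 dimmer Ccnb1 probes, neither well above background on every array, gave 2.83 and 0.37 in WT and 3.43 and 1.40 in KO. Ccnb2 overlapped in both, at 0.92 and 0.82, and so did the phosphatase Cdc25b, at 0.75 and 0.55. By the brightest probes, Cdc25c had the greatest difference of the group, 2.05 in WT and 2.33 in KO, though 1 dimmer Ccnb1 probe exceeded it. No member of the group passed the test.

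Of the other mitotic kinases, Aurka and Melk had opposite signs in the genotypes. For Melk the WT sign is not a measured difference, since WT HSC replicates 2 and 3 and WT MPP replicate 2 were not well above background. Aurka in KO gave 8.01, 10.48 and 9.58 in HSCs and 8.73, 8.87 and 10.15 in MPPs, so that the KO HSC arrays covered the range of the MPP arrays (log2 difference -0.11, SE 0.69). The Aurka difference between the genotypes was -2.49 (SE 0.91, limma unadjusted p = 0.0313, adjusted p = 0.964), a size that uses the 2 dim WT HSC arrays. Plk1, the Polo kinase that drives mitotic entry and spindle assembly, was 0.77 higher in WT MPPs and 0.64 higher in KO MPPs. Nek2, a centrosome kinase, was 1.64 higher in WT with an SE of 1.14, because MPP replicate 2 stood at 6.56 against 10.80 and 10.40. In KO its groups did not overlap (10.32, 8.16 and 10.37 against 12.10, 11.58 and 13.03). Melk, a kinase of dividing progenitors, was not well above background on any KO HSC array. Its KO level was at least 2.72-fold higher in MPPs, where all 3 arrays were well above background, taking the lowest signal well above background as the limit for HSCs.

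In the spindle assembly checkpoint, 4 of 5 members were higher in MPPs in each genotype, and 0 passed the test. Ttk (Mps1), the kinase at the top of the checkpoint, gave 9.78, 6.86 and 6.03 in WT HSCs and 11.76, 10.61 and 11.05 in WT MPPs. In KO it gave 10.68, 6.19 and 12.69 against 12.89, 12.81 and 13.70. The HSC arrays were far apart in both genotypes, with WT replicate 3 and KO replicate 2 not well above background, and the log2 differences of 3.58 and 3.28 carried SEs of 0.97 and 1.52. Bub1b (BubR1), which binds and inhibits Cdc20, ranged from 6.02 (HSC replicate 2, not well above background) to 11.54 over WT HSCs, with a difference of 1.90 (SE 1.30), and was 2.06 (SE 0.54) higher in KO MPPs without overlap. The kinase Bub1 was 0.79 and 1.64 higher in WT and KO, and its partner Bub3 0.20 and 0.92. Mad2l1 (Mad2), the diffusible inhibitor of Cdc20, was the exception, at 12.62, 12.74 and 12.14 in WT HSCs against 12.46, 11.47 and 11.55 in WT MPPs. Its KO values were 14.26, 13.68 and 13.41 against 13.45, 13.03 and 13.27, and the log2 differences were -0.67 and -0.53 (limma adjusted p = 0.415 and 0.517). The direction for Mad2l1 rests on its brightest probe, since its other 2 probes gave 1.73 and 2.08 in WT and 0.77 and 1.59 in KO.

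The 3 measured members of the chromosomal passenger complex, which corrects faulty attachments and marks the division site, were higher in MPPs in both genotypes, with 0 called. Cdca8 (borealin) gave 12.94, 10.16 and 11.87 in WT HSCs and 13.99, 14.04 and 13.66 in WT MPPs. Its KO values were 13.40, 14.33 and 14.54 against 15.41, 15.06 and 15.81, and no arrays overlapped in either genotype. The differences were 2.24 (SE 0.68) and 1.34 (SE 0.38). The other Cdca8 probe, well above background on every array, gave 0.62 in WT and 1.54 in KO. Birc5 (survivin) differed by 0.95 and 1.87, also without overlap in both. Incenp, the scaffold of the complex, differed by 1.97 without overlap in WT and by 1.44 with overlap in KO, where HSC replicate 2 stood at 8.59 against 12.56 and 11.64.

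All 4 genes of anaphase and protein turnover were higher in MPPs in both genotypes. Ube2c (UbcH10), the ubiquitin-conjugating enzyme of the anaphase-promoting complex, gave 8.98, 10.49 and 6.04 in WT HSCs and 11.93, 12.30 and 11.56 in WT MPPs. In KO it gave 10.98, 9.33 and 13.23 against 13.49, 14.05 and 13.75. The MPP arrays were close to each other and the HSC arrays more than 10-fold apart, and the log2 differences were 3.43 (SE 1.08) and 2.58 (SE 0.91). WT HSC replicate 3 was not well above background for this probe. The other Ube2c probe, well above background on every array, gave 1.77 in WT and 1.72 in KO. Cdca3 (Tome-1), a trigger of Wee1 destruction, was well above background on no WT HSC array and on 2 of 3 WT MPP arrays. Since both groups hold dim arrays, the size of its WT difference is not measured and no fold is given. Cdc20 in WT overlapped, at 10.14, 10.66 and 7.51 against 9.67, 10.56 and 10.11.

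At the centromere and kinetochore, 5 of 6 members were higher in WT MPPs and 6 of 6 in KO, with 0 called in either. Nuf2, of the Ndc80 complex that binds microtubules, gave 9.54, 9.0 and 8.82 in WT HSCs and 11.58, 10.20 and 11.33 in WT MPPs (log2 difference 1.91, SE 0.43), with no overlap. All 3 of its probes gave values between 1.48 and 1.91 in WT and between 1.29 and 1.69 in KO. Ndc80 itself and Spc25, partners of Nuf2, overlapped in WT (0.63 and 0.44) and did not in KO (2.25 and 1.29). Cenpe, a kinetochore kinesin, was separated in both genotypes (1.83 and 1.22). Cenpa, the centromeric histone H3 variant, overlapped in both (0.44 and 1.11). Cenpf, a large kinetochore and nuclear matrix protein, stood at 7.14, 5.96 and 6.12 in WT HSCs and 6.25, 5.91 and 5.96 in WT MPPs, well above background on 1 of 3 arrays in each. In KO it gave 6.51, 6.34 and 9.92 against 9.49, 11.55 and 8.61, with HSC replicate 3 inside the MPP range.

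Among the spindle motors and microtubule-binding proteins, 7 of 9 members were higher in WT MPPs and 8 of 9 in KO, with 0 called. Kif11 has been given above. Kif2c (MCAK), which depolymerises microtubule ends at centromeres, differed by 1.85 and 2.63, and both of its probes were higher in both genotypes. Kif22, a chromosome arm motor, differed by 1.39 and 1.67, and Tpx2, the activator of Aurora A, by 1.19 and 1.26. Nusap1, a microtubule bundler, differed by 0.67 and 1.07, and Ckap5 (chTOG), a microtubule polymerase needed also outside mitosis, by 0.28 and 0.26. Kif4, the chromokinesin, was uneven in WT (8.33, 9.59 and 6.12 against 10.61, 6.81 and 11.31) and separated in KO (8.08, 6.68 and 10.53 against 11.64, 12.01 and 12.11). Its KO difference was 3.49 (SE 0.91), with WT HSC replicate 3 and KO HSC replicate 2 not well above background. Without HSC replicate 3, the highest KO HSC array for it, Kif4 was the 1 member called in KO. The KO HSC values then left were 8.08 and the dim 6.68, and Kif4 passed the filter only through MPPs. Hmmr (RHAMM), a spindle assembly factor also known as a hyaluronan receptor, gave 14.02, 14.57 and 13.60 in WT HSCs and 14.12, 12.67 and 12.81 in WT MPPs. In KO it gave 16.26, 15.51 and 15.34 against 15.16, 15.13 and 15.40. Its arrays overlapped in both, and the differences of -0.86 and -0.47 had 95% intervals from -2.02 to 0.29 and from -1.22 to 0.28. Ckap2, a spindle-stabilising protein, gave -0.37 in WT and 3.08 in KO, where KO HSC replicate 2 stood at 7.40 against 11.05 and 12.20.

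For the central spindle and cytokinesis, all 6 members were higher in MPPs in both genotypes, and Ect2 in KO was the only call. Kif23 (MKLP1) and Racgap1 form centralspindlin, which recruits Ect2. Kif23 gave 12.70, 10.25 and 11.92 against 13.31, 13.08 and 12.89 in WT, and 13.42, 14.28 and 14.54 against 14.73, 14.56 and 14.62 in KO. The arrays did not overlap in either genotype, though in KO the groups were separated by a small margin. Its differences were 1.47 and 0.56, and the other Kif23 probe gave 0.62 in WT and 2.34 in KO. Racgap1 differed by 0.77 without overlap in WT and by 0.26 with overlap in KO, and its other probe gave 1.45 and 0.83. Prc1, which bundles midzone microtubules, differed by 0.07 and 0.74. Anln (anillin), the scaffold of the contractile ring, differed by 1.97 and 1.88 with overlap in both, and KO HSC replicate 3 stood at 10.97, above every KO MPP array. For Anln, WT HSC replicates 2 and 3 and KO HSC replicate 2 were not well above background. The other Ect2 probe, dimmer and well above background on 1 of 3 WT HSC arrays, gave 1.02 in WT and 1.36 in KO.

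Of the condensin, topoisomerase and chromosome surface genes, all 8 were higher in MPPs in both genotypes, with Smc2 in WT the only call. In KO, Smc2 gave 6.89, 9.53 and 9.19 in HSCs and 9.48, 9.46 and 9.13 in MPPs, with overlap. Its KO difference was 0.82 (SE 0.68, limma adjusted p = 0.643). The difference between the genotypes was -1.81 (SE 0.75, limma unadjusted p = 0.0491, adjusted p = 0.964), so Smc2 is not shown to respond differently in KO and WT. Its partner Smc4 differed by 0.64 and 1.28. The condensin I subunits Ncapd2, Ncapg and Ncaph differed by 0.93, 0.43 and 1.36 in WT and by 1.30, 0.88 and 2.19 in KO. Ncapg was not well above background on WT HSC replicate 3 and KO HSC replicate 2, nor Ncapd2 on WT MPP replicate 2. In KO the arrays of Smc4 and of all 3 condensin I subunits did not overlap, and in WT those of each overlapped. Top2a, which untangles sister chromatids, gave 10.91, 11.09 and 8.45 against 12.20, 11.11 and 11.59 in WT, and 11.97, 9.41 and 12.51 against 13.83, 13.51 and 14.06 in KO. Cdca2 (Repo-Man), a chromatin-bound phosphatase subunit, differed by 2.49 (SE 0.57) and 3.12 (SE 0.76), without overlap in either. Mki67, the Ki-67 protein that coats mitotic chromosomes, overlapped in WT (13.21, 12.83 and 11.56 against 13.70, 12.37 and 12.46) and was separated in KO (14.42, 14.21 and 14.44 against 15.58, 14.85 and 15.95).

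**Figure D3:**
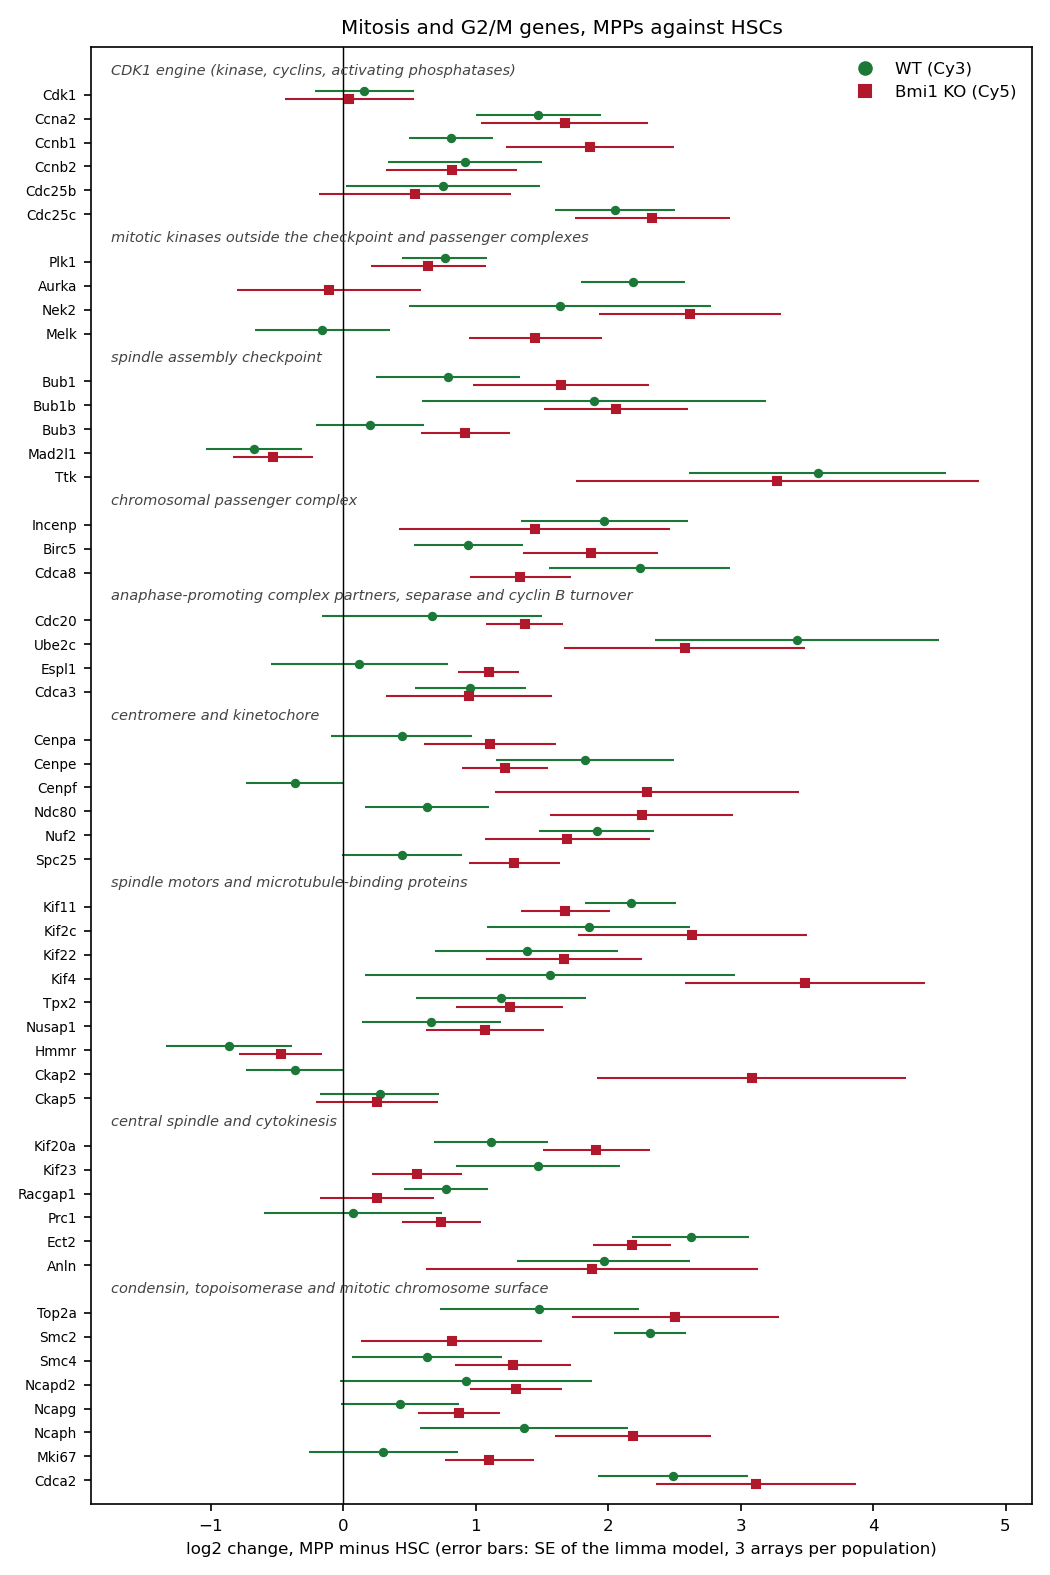
Log2 change from HSCs to MPPs (horizontal axis) with the SE of the limma model, for the 51 tested members grouped by role, in WT (green circles) and Bmi1 KO (red squares). Points lie right of 0 for 46 members in WT and 48 in KO, and the bars are wide for genes whose HSC arrays differed, such as Ttk and Ube2c.

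Taken array by array, the median level of the 51 members was 9.49, 8.87 and 8.16 in WT HSCs and 10.61, 10.17 and 10.34 in WT MPPs. In KO it was 10.32, 9.53 and 10.97 in HSCs and 11.69, 11.55 and 12.18 in MPPs. The medians did not overlap in either dye, while the median of all features stayed between 8.66 and 8.70 in green and between 10.05 and 10.09 in red after normalization. HSC arrays were the more variable. The median SD of a member over 3 arrays was 0.78 in WT HSCs and 0.55 in WT MPPs, against 0.44 and 0.38 for all features. In KO it was 0.82 in HSCs and 0.49 in MPPs, against 0.48 and 0.29.

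**Figure D4:**
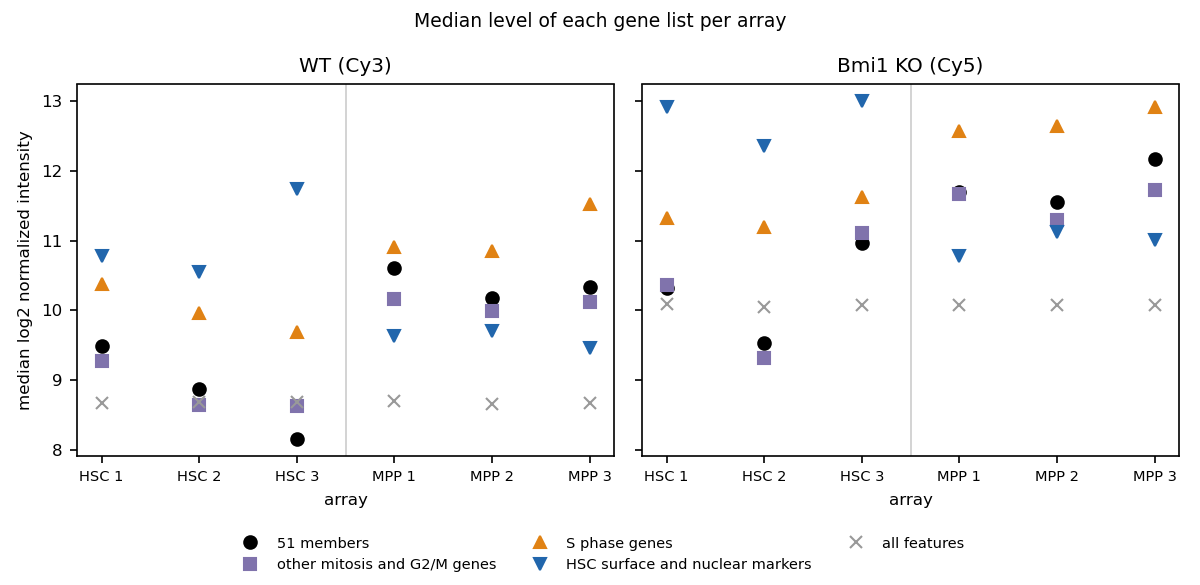
Median log2 normalized intensity (vertical axis) of the 51 members, of other mitosis genes, S phase genes, HSC markers and all features on each array (horizontal axis), for WT (left) and Bmi1 KO (right). The members lie between 8.16 and 9.49 on WT HSC arrays and between 10.17 and 10.61 on WT MPP arrays, and HSC markers run the other way.

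Other cell-cycle genes, from lists with no member in common, were read in the same way. Of 84 measured genes among 92 further mitosis genes, 67 were higher in MPPs in WT (median log2 change 0.91, 1 called) and 65 in KO (1.21, 0 called). Cenpm, a centromere protein, was the gene that rose in WT (2.67, SE 0.33, limma adjusted p = 0.0446). Of 47 measured S phase genes, 40 were higher in WT (median 1.15) and 44 in KO (1.13), and 0 were called in either. Cdt1, a replication licensing factor, had the greatest WT difference among them at 4.15 (SE 0.62, limma adjusted p = 0.0684). Of 7 CDK inhibitors, 3 were higher in WT MPPs and 5 in KO MPPs. Cdkn1c (p57), a mark of quiescent HSCs, fell in KO MPPs (log2 change -2.96, SE 0.32, limma adjusted p = 0.0218) and had a log2 difference of -1.98 in WT (limma adjusted p = 0.198).

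Markers of committed blood cells moved with the same comparisons. Granulocyte and monocyte markers were higher in MPPs for 8 of 10 genes in both genotypes (medians 1.56 and 2.38), with array medians from 7.74 to 11.59 in WT HSCs and from 11.21 to 12.51 in WT MPPs. Basophil, mast cell and eosinophil markers were higher for 7 of 7 genes in WT and 6 of 7 in KO (medians 3.93 and 1.57), and HSC replicate 3 stood above the other HSC arrays (10.1 against 6.18 and 6.34 in WT, 13.7 against 7.0 and 7.67 in KO). B lineage markers were higher for 8 of 8 genes in KO (median 4.44) and 7 of 8 in WT (median 0.41), with array medians of 11.1, 13.6 and 14.5 in KO MPPs against 7.64 to 9.26 in KO HSCs. Erythroid markers were higher for 2 of 9 genes in WT and 5 of 9 in KO, T and NK cell markers for 2 and 1 of 9, and megakaryocyte markers for 1 and 2 of 5. Every measured marker of these lists was well above background on at least 1 array of each population in each dye. The part of these cells in the mitosis gene differences was not tested. On the slide, row 1 held the HSC arrays together with MPP replicate 1, and row 2 the remaining MPP arrays. Within row 1 (MPP replicate 1 against the HSC arrays), which also gives the value with row as a covariate, 45 members were higher in WT and 48 in KO, with medians of 1.15 and 1.32. Fewer members had an unadjusted limma p under 0.05 with row than without row (18 in WT, 34 in KO). The share of all features at that p was not counted in the fit with row. The MPP arm of that fit is 1 array, assumed to vary like the HSC arrays and the other 2 MPP arrays, which supply the spread.

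The comparison of Bmi1 KO with WT asked whether loss of Bmi1 shifts these genes in HSCs or MPPs. In HSCs 28 of 51 members had a mean KO over WT ratio above 0, against 50.2% of all features, with a median log2 ratio of 0.11 (0.00 over all features). None was called by limma, and none of the 28978 features was called either (0%). At an unadjusted p under 0.05, 2 members were higher (3.96% of features) and 1 lower (3.45%). These 3 became 10 without HSC replicate 1, 5 without HSC replicate 3 and 1 among probes well above background in both channels of all 6 arrays. In these fits and the alternative fits below, the share of all features at that p was not counted. The ratio was above 0 on all 3 HSC arrays for 4 members, against 13.3% of features, and below 0 on all 3 for 3 members, against 13.6%.

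The HSC arrays disagreed with one another for these genes. On HSC replicate 1, 14 of 51 members had a ratio above 0, on replicate 2, 23, and on replicate 3, 40, whereas 49.1% to 51.4% of all features were above 0 on each. The median ratio was -0.46, -0.22 and 0.76. Both dyes contributed, since the WT level was lowest on replicate 3 for 28 members (33.1% of features) and the KO level lowest on replicate 2 for 29 (28.4% of features). The median SD of a member's ratio was 1.41 over HSC arrays (0.63 for all features) and 0.75 over MPP arrays (0.52). Ube2c gave ratios of 0.50, -2.45 and 5.88, the last against a WT level not well above background. Without HSC replicate 3, only 16 members were above 0 and the median was -0.30, so the direction of the HSC comparison rests on that array. With median centring of the ratios in place of the loess curve, 36 members were above 0, and the median of all features moved to 0.29.

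Members with 1 sign on all 3 HSC arrays were few. Cdca3 gave 0.83, 0.92 and 0.37 (mean 0.71, SE 0.24, limma adjusted p = 0.663), and its level was well above background on 3 KO and 0 WT HSC arrays, at least 1.53-fold higher in KO. Plk1 gave 0.80, 0.07 and 1.42 (mean 0.77, SE 0.47), Kif11 0.83, 0.13 and 0.09 (0.35, SE 0.25), and Spc25 0.03, 0.38 and 0.32 (0.24, SE 0.46). On the negative side Ckap2 gave -1.94, -5.63 and -0.82 (mean -2.80, SE 0.87, limma adjusted p = 0.663), its value on replicate 2 standing far below the others. Prc1 gave -1.76, -0.40 and -1.30 (-1.15, SE 0.50) and Bub1 -0.18, -0.46 and -0.61 (-0.41, SE 0.30). Aurka, with ratios of -0.17, 3.13 and 2.23, had an unadjusted limma p of 0.0335 but not 1 sign, and its ratios on replicates 2 and 3 are against WT levels not well above background. Melk was well above background on 1 WT and 0 KO HSC arrays, so no fold is given. None of these differences passed the test.

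In MPPs 30 of 51 members had a mean ratio above 0, against 50.7% of all features, with a median of 0.18 (0.01 over all features). Limma called 0 members and 0 of the 28978 features (0%), and at an unadjusted p under 0.05 it gave 1 member higher (2.49% of features) and 0 lower (2.61%). This count was 3 without HSC replicate 1 or without MPP replicate 1, 0 without MPP replicate 2, and 6 with median centring. On these arrays the median ratio of the 8 B lineage markers was 2.01, 4.31 and 4.17, against -0.02, -0.09 and -0.41 on the HSC arrays, and the part of such cells in the members' ratios was not tested. The ratio was above 0 on all 3 arrays for 10 members, against 14.8% of features, and below 0 on all 3 for 5, against 14.2%. Cenpf was that 1 member, with ratios of 2.12, 4.21 and 1.36 (mean 2.56, SE 0.88, limma unadjusted p = 0.0251, adjusted p = 0.964). Its WT level was well above background on 1 of the 3 MPP arrays. Mki67 gave 0.08, 0.75 and 1.63 (mean 0.82, SE 0.45), and Melk 0.55, 0.51 and 1.16 (0.74, SE 0.52). Ckap5 gave 0.05, 0.82 and 1.18 (0.68, SE 0.53) and Cdca3 0.46, 0.07 and 0.46 (0.33, SE 0.24). All 4 stood higher in KO on each MPP array, by differing amounts. The 5 members below 0 on each array were Smc2 (-0.41, -0.94 and -1.12), Aurka (-0.57, -1.64 and -0.07), Birc5 (-0.19, -0.51 and -0.73), Kif11 (-0.19, -0.41 and -0.00) and Kif23 (-0.22, -0.29 and -0.03). The direction for Birc5 depends on the probe, since its other probes gave mean MPP ratios of -1.10 and 0.68. The mean ratios of Birc5, Kif11 and Kif23 turned to 0.10, 0.09 and 0.41 with median centring in place of the loess curve, a setting that moved the median of all features to 0.26 and put 45 members above 0. Without MPP replicate 3, 25 members were above 0 and the median was -0.02.

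Averaged over HSCs and MPPs, 31 members had a ratio above 0 (50.1% of features) with a median of 0.09, and 0 were called (0% of features). The count was 41 with median centring and 20 without HSC replicate 3. At an unadjusted limma p under 0.05, 1 member was higher (4.5% of features) and 1, Prc1, lower (-0.94, SE 0.35; 3.88%). These 2 became 7 without HSC replicate 1, 4 without HSC replicate 3, 3 without MPP replicate 1, 0 without MPP replicate 3 and 5 with median centring. None of the 51 members was below 0 on all 6 arrays, against 3.3% of features. Cdca3 was the only member above 0 on all 6, against 3.27% (mean 0.52, SE 0.17, limma unadjusted p = 0.0197, adjusted p = 0.579), and its WT level was not well above background on 4 of them. The KO effect in MPPs minus that in HSCs was above 0 for 31 members (50.8% of features), with a median of 0.17 and 0 called (0% of features), for 40 without HSC replicate 3 and for 24 without HSC replicate 1, where the median turned to -0.03. At an unadjusted limma p under 0.05, 1 member, Ckap2, was higher in MPPs (3.21, SE 1.24), against 1.69% of features. Aurka and Smc2, 2 members, were lower at that p, against 2.37% of features. The adjusted p of all 3 was 0.964. The number at that p was 6 without HSC replicate 1, 5 without HSC replicate 3 and 1 without any 1 MPP array. The ratios of the 2 populations did not overlap for Ckap2 and Melk, higher in MPPs, against 3.82% of features, and for Kif11, lower in MPPs, against 4.29%. The Melk ratios in HSCs come from levels at background, so their order is not a measured difference.

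**Figure D5:**
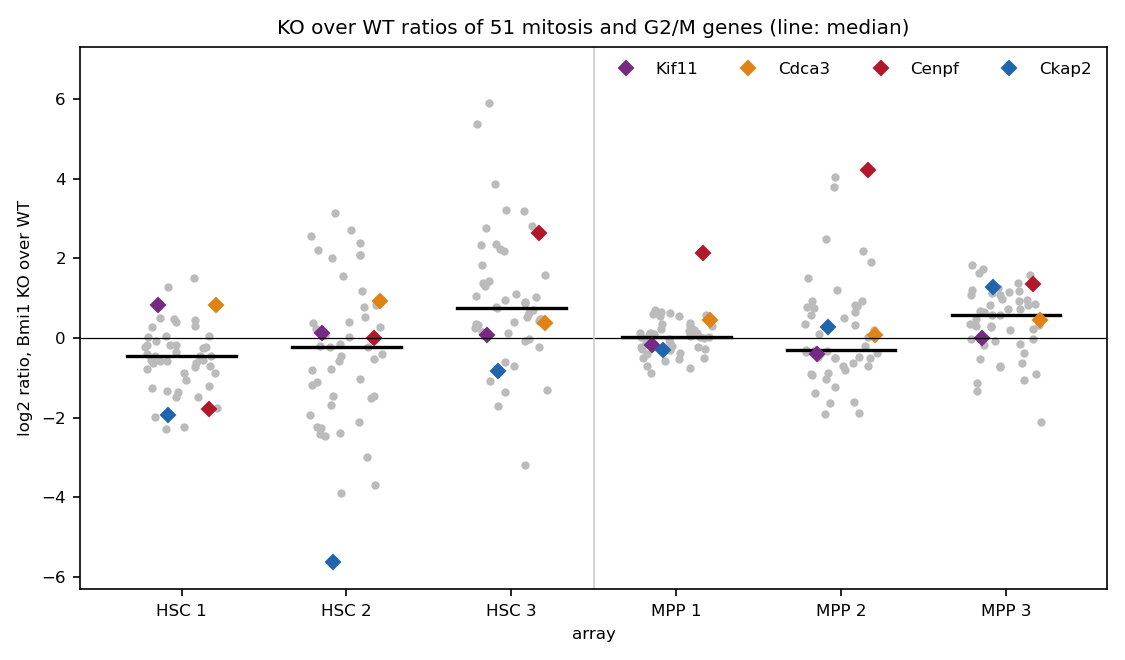
Log2 ratio of Bmi1 KO over WT (vertical axis) of the 51 tested members on each array (horizontal axis, points spread sideways for clarity), with the median as a line and 4 members in colour. The medians run from -0.46 to 0.76 over HSC arrays and from -0.29 to 0.56 over MPP arrays, and Cdca3 is above 0 on all 6.

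Where a gene had more than 1 probe, the brightest was used, and 19 other probes in 14 members passed the filter. The change from HSCs to MPPs had the same sign as the probe used for 17 of the 19 in WT and 17 in KO. For KO over WT the signs matched for 13 in HSCs and 10 in MPPs.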

How the data were processed

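The files hold, per the file headers, spot and local background intensities of 6 two-colour Agilent arrays with Feature Extraction given as version 10.7.3.1 (as version 8.5.1.1 in the submitters' processing notes). The authors' deposited log10 ratio and processed signal intensity were used only in alternatives, and the other columns used are deposited 0 or 1 marks of saturated, uneven or outlying spots and of spots well above background. Mean intensities were corrected by normexp (limma 3.58.1, R 4.3.3, offset 50), log2 ratios were loess-normalized within arrays, and log2 channel levels quantile-normalized between arrays within each dye. Control and marked spots were left out, spots of a probe averaged, and probes kept when well above background on all 3 arrays of at least 1 group in 1 dye. The brightest of a gene's 44642 kept probes stood for it, by the name in the files. The method was tested on simulated data.

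All 28978 features were fitted with limma (lmFit, eBayes) with a mean per population, and p-values adjusted by Benjamini-Hochberg with a threshold of 0.05. A p-value here reflects only how far these particular samples spread. With 3 against 3 arrays, the smallest two-sided p of an exact permutation test is 0.1. Values at the level of 1 gene are log2 with the model's SE, from 3 arrays per population.

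The members and gene lists were chosen with earlier results of these data known. Full statistics are given for up to 12 members passing per direction, or otherwise for the 5 with the smallest p whose arrays do not overlap or have 1 sign. Other genes of a list are named only among its 4 smallest p-values. "At least" folds set the brighter group against the lowest signal well above background. The alternatives tried were other background correction, scaling, filters, probe averaging, slide row, replicate block, a separate-channel model and leaving out each array.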

Additional observations from a re-analysis of the deposited data

Results flagged for a closer look

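Kif11, the spindle pole kinesin, had KO over WT log2 ratios of opposite sign in the populations on every array. In HSCs the ratios were 0.83, 0.13 and 0.09, all above 0, and in MPPs they were -0.19, -0.41 and -0.0044, all below 0. The last of these lies so near 0 that its sign carries little weight. Kif11 was picked from the members by this sign pattern, and the share of all features showing it was not counted. The effect in MPPs minus that in HSCs was -0.55 (SE 0.36, limma unadjusted p = 0.176, adjusted p = 0.964), which did not pass the test. With median centring the MPP mean was 0.09, above 0.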

How the results depend on the processing

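The excess of higher members in MPPs kept its direction under every alternative run. In WT between 42 and 47 of 51 members were higher when 1 array was left out (median 0.82 to 1.14), and in KO between 45 and 49 (median 1.21 to 1.55). Single calls did not hold. In WT, Smc2 and the count of members called went to 0 with the Agilent processed signal (log2 change 3.97, adjusted p = 0.0738), no filter on dim probes (0.0514), the filter on all 6 arrays (Smc2 not tested), slide row as a covariate (0.492), the replicate block (0.202) and every left-out array (0 to 0). In KO, Ect2 and the count went to 0 with the processed signal (0.0561), no filter (0.0542), slide row (0.557) and the replicate block (0.149), and to between 0 and 1 with an array left out. Averaging probes called Birc5 in place of Ect2. Of all features, WT calls went from 123 to 51 without the filter, 0 with slide row, 0 with the replicate block and 0 to 121 with an array left out. KO calls went from 153 to 16 with slide row, 37 with the replicate block and 57 to 152 with an array left out. For KO over WT, members above 0 ranged from 16 to 34 in HSCs with an array left out, and from 20 to 33 for the mean effect, the lowest value each time without HSC replicate 3. Median centring called 302 features for the mean effect but 0 members, and turned Birc5, Kif11 and Kif23 in MPPs to 0.10, 0.087 and 0.41. The cause of these shifts was not tested. Same-numbered HSC and MPP samples hardly deviated together (r from 0.04 to 0.16 in WT and from 0.00 to 0.10 in KO). Even so, 3 of 3 WT and 2 of 3 KO numbers correlated best with their own. Whether the numbers pair the samples was therefore not settled by these values. Signal over background limits Aurkb and the 12 tested members not well above background on 1 or more arrays.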
